A study of Mus musculus with 10 samples.

Results

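The genes described are the cytochrome P450 genes measured in mouse liver, without 6 that are known for sterol and bile acid synthesis or as PPAR alpha targets. They were taken as every gene on the array whose platform symbol starts with Cyp and a digit, leaving out Cyp51, Cyp7a1, Cyp7b1, Cyp8b1, Cyp4a10 and Cyp4a14. This gave 34 of the 8251 genes measured with a single symbol. Where a gene had more than 1 probe set, the brightest on average was used.

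Cytochromes P450 are heme enzymes that insert an oxygen atom into lipophilic substrates, with electrons passed on from NADPH by reductase partners. In hepatocytes the Cyp1, Cyp2 and Cyp3 families oxidise drugs, pollutants, steroids and retinoids, and the Cyp4 family hydroxylates fatty acids. Their genes are controlled by ligand sensors such as AHR, CAR (gene Nr1i3) and PXR (gene Nr1i2), by hepatocyte factors, and by the male and female patterns of growth hormone release.

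Liver RNA of male mice in 5 groups was hybridised to Affymetrix MG_U74Av2 arrays to ask, as the title of the study says, which genes are direct targets of SREBPs, the transcription factors of lipid synthesis. TgSREBP-1a and TgSREBP-2 mice overexpressed the active nuclear form of human SREBP-1a or SREBP-2. All mice of this set, wild type littermates included, were aged 12 to 16 weeks. For 2 weeks they were given a high protein/low carbohydrate diet (below, the high-protein diet), which drives the transgenes. Scap-/- mice carried MX1-Cre, an interferon-inducible Cre recombinase, and lacked in liver the protein SCAP, which escorts SREBPs to their activation. This knockout set, with wild type mice as controls, was aged 10 to 12 weeks and fed Teklad chow. Knockout and wild type mice alike had received 4 injections of polyinosinic-polycytidylic acid, the last of them 14 days before the livers were taken. The promoter of the transgenes, and whether the wild type controls of the Scap set carried MX1-Cre, are not given in the sources used here.

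RNA of 5 mice was pooled per group and each pool was hybridised in duplicate. The p-values below therefore measure the spread between 2 hybridisations of 1 pool and compare pools. They hold no error between mice. Values are log2 signals, and a difference is the first group minus the second with its moderated standard error from limma (n = 2 arrays per group). A gene was called where limma gave an adjusted p under 0.05 over all 8251 genes and the difference reached 1.5-fold, and "rose" and "fell" are used for calls only. Duplicates correlated at 0.9921 to 0.9978 over all genes. They were at least 1.5-fold apart for 151 genes in TgSREBP-1a, 101 in high-protein wild type, 55 in TgSREBP-2, 6 in Scap-/- and 0 in chow wild type, and none of these genes was a P450 described here. Signals of different probe sets cannot be set against each other as levels. In liver RNA, fewer cells of a type and less RNA per cell cannot be told apart.

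At least 1 of 5 comparisons called 18 of the 34 P450 genes (52.9%), against 12.3% of all genes. In TgSREBP-1a, 13 of 34 were called, 5 higher and 8 lower, against a background of 7.37% of all genes (4.78% higher and 2.59% lower). In TgSREBP-2 only 4 were called, 2 in each direction, against 2.57% of all genes (2.18% higher and 0.388% lower). In Scap-/- a single gene, Cyp2c70, was called, against 1.66% of all genes (0.739% higher and 0.921% lower). Between the transgenic pools 15 of 34 differed, 6 higher and 9 lower in TgSREBP-1a, against 5.19% of all genes (2.24% higher and 2.95% lower). Between the wild type pools 5 were lower on the high-protein diet and 0 were higher, against 5.62% of all genes (1.28% higher and 4.34% lower). At an unadjusted p under 0.05 in limma, with no fold threshold, 2 members were higher on that diet and 12 lower, against 16.2% and 21% of all genes. At an adjusted p under 0.05 in limma with no fold threshold, 16 members passed in TgSREBP-1a against 16.6% of all genes, and 7 in TgSREBP-2 against 5.05%. Under this looser rule 19 passed between the transgenic pools against 11%, 5 in Scap-/- against 2.84%, and 10 between the wild type pools against 22.7%.

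The members moved in both directions, so their middle hardly shifted. The median difference of the 34 genes in TgSREBP-1a was -0.08, beside -0.03 over all genes. The median size of the difference, whatever its sign, was 0.30 against 0.14 over all genes. Between the transgenic pools it was 0.45 against 0.10, and in Scap-/- it was 0.16 against 0.07. Many P450 genes have bright probe sets: 26 of the 34 had a mean of at least 6. Of the 5472 genes that bright, calls took 9.9% for TgSREBP-1a, 3.58% for TgSREBP-2, 7% between the transgenic pools, 2.28% for Scap-/- and 7.58% between the wild type pools. Of the 26 P450 genes among them the calls were 11, 4, 15, 1 and 3. With 2 arrays per pool, groups often do not overlap. Called genes included, this held for 23 of the 34 P450 genes in TgSREBP-1a against 51.6% of all genes, 21 in TgSREBP-2 against 43.8%, 26 between the transgenic pools against 44.7%, 24 in Scap-/- against 43.7%, and 22 between the wild type pools against 66%.

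**Figure D1:**
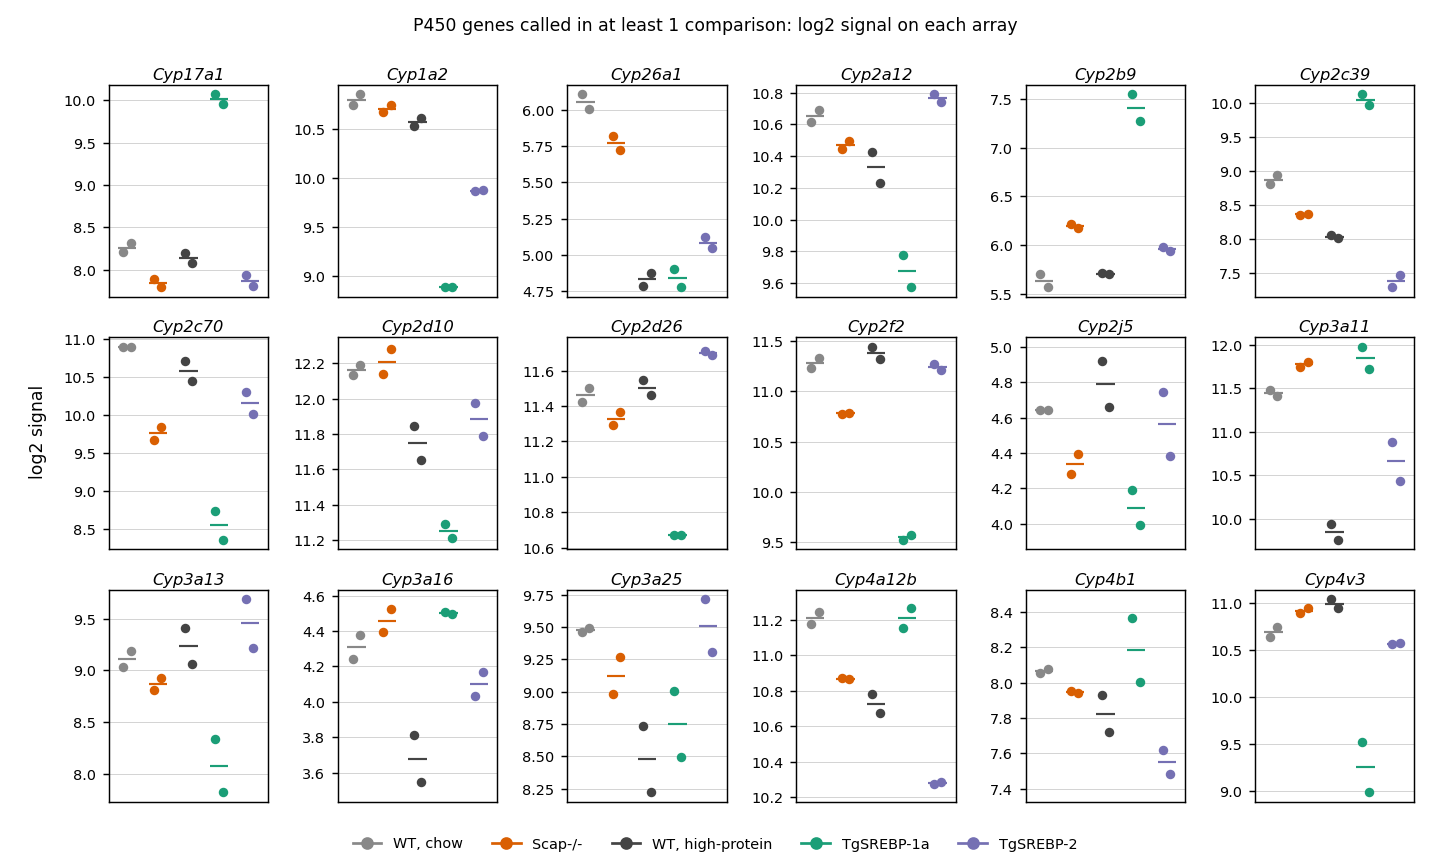
Log2 signal (y axis, a scale of its own in each panel) of the 18 P450 genes called in at least 1 comparison. Each point is 1 array, each bar the mean of the 2 arrays of a pool, and colours mark the 5 pools. The TgSREBP-1a arrays of Cyp2c39, Cyp17a1 and Cyp2b9 lie above all other arrays, and those of Cyp1a2, Cyp2f2, Cyp2c70 and Cyp4v3 lie below all others.

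**Figure D2:**
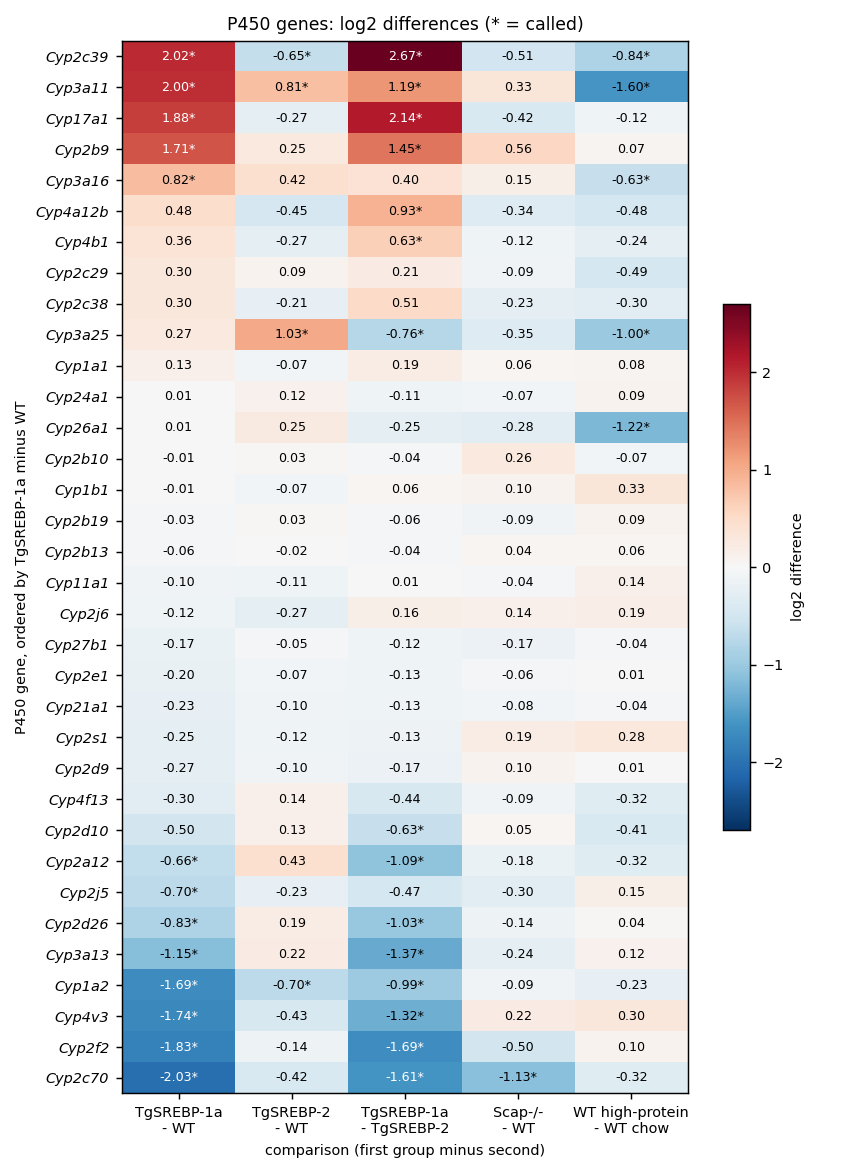
Log2 differences of all 34 P450 genes (rows, ordered by TgSREBP-1a minus wild type) in the 5 comparisons (columns). Red is higher and blue lower in the first group named, numbers are the differences, and a star marks a call. Stars crowd at both ends of the columns that hold TgSREBP-1a, and 1 star, at Cyp2c70, stands in the Scap-/- column.

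Promoters are shown for 4 genes: Cyp1a2, Cyp2c70 and Cyp3a11, which were called the same way in more than 1 genotype, and Cyp2c39, whose difference was the largest of the other called genes with a promoter entry. They are the 250 bases before the transcription start in RefSeq, written 5′ to 3′ on the gene's own strand. Capitals mark the letters TATAAA, the core of a TATA box, or their reverse complement.
Cyp1a2, GRCm38.p6, chr9:57683656-57683905, minus strand: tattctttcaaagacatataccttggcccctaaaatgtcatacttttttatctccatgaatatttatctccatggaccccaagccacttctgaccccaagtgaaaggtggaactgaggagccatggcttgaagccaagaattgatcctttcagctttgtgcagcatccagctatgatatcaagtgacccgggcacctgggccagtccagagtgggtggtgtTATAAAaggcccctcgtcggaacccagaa
Cyp2c70, GRCm38.p6, chr19:40187287-40187536, minus strand: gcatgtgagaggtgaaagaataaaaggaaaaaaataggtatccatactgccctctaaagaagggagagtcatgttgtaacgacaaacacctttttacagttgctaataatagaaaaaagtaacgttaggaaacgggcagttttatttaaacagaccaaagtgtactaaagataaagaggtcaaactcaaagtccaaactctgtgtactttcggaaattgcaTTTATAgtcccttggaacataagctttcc
Cyp3a11, GRCm38.p6, chr5:145879855-145880104, minus strand: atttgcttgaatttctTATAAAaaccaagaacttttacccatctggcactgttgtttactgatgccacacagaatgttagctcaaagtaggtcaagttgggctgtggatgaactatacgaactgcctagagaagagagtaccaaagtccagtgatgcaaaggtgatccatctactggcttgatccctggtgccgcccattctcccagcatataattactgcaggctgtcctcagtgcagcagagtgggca
Cyp2c39, GRCm38.p6, chr19:39510572-39510821, plus strand: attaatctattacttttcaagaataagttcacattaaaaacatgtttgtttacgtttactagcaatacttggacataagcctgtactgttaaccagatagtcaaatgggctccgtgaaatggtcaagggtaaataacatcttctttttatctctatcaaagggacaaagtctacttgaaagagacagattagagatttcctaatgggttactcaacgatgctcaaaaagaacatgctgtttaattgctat
The motifs searched on both strands in windows of 300 bases (250 before and 50 after the start) were TCACNCCAC for the sterol regulatory element that SREBPs bind, CACGTG for the E-box, TNGCGTG for the xenobiotic response element bound by AHR, and TATAAA, which was added after the sequences were seen. Of the 34 genes, 30 had an entry, and 3 of them had 2 windows. For Cyp2c39, the window at the start nearer to the gene's 3′ end is printed, which lies within the annotated gene. The window at the outermost start is not printed. The sterol element letters were in the window of 1 gene, Cyp2b10, and in 1.24% of all 32851 windows. E-box letters were in the windows of Cyp2j6 and Cyp4v3, and in 7.15% of all windows. The xenobiotic element was in 0 of the 30, and in 5.07% of all. TATAAA was in a window of 15 of the 30 genes and in 13.6% of all windows. Its matches began at places from 234 bases before the start (Cyp3a11) to 29 bases after it (Cyp26a1). Cyp2c39 is among the 15, but its match begins 3 bases before the start and runs past the printed end, so it carries no capitals. A match is only a match of letters, and sites outside these short windows were not searched.

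The Cyp1 genes divided into 1 that fell and 2 that were never called. Cyp1a2, which oxidises caffeine and aromatic amines and is a classic AHR target, stood at 8.88 and 8.89 in TgSREBP-1a and at 9.86 and 9.88 in TgSREBP-2. High-protein wild type had 10.53 and 10.62, Scap-/- 10.68 and 10.75, and chow wild type 10.74 and 10.86. Both transgenic pools were below every other pool, with TgSREBP-1a the lower of them. Cyp1a2 fell by 1.69 ± 0.08 in TgSREBP-1a, which is 3.23-fold (limma adjusted p = 1.48e-07), and by 0.70 ± 0.08 in TgSREBP-2 (limma adjusted p = 0.00048). The pools differed directly by -0.99 ± 0.08. Scap-/- gave -0.09 ± 0.08. The AHR target Cyp1a1, which is dim without an inducer, ran from 5.32 to 5.70 over the 10 arrays. Cyp1b1, an enzyme of oestrogen and pollutant oxidation, ran from 4.37 to 4.98.

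In the Cyp2c family, Cyp2c39 and Cyp2c70 went opposite ways in TgSREBP-1a. Cyp2c39, an enzyme that hydroxylates retinoic acid, was at 10.13 and 9.96 in TgSREBP-1a livers, 8.05 and 8.01 in high-protein wild type, and 7.28 and 7.47 in TgSREBP-2. The 3 pools on this diet did not overlap, with TgSREBP-1a above and TgSREBP-2 below their shared wild type. Cyp2c39 rose 4.05-fold in TgSREBP-1a (2.02 ± 0.09, limma adjusted p = 1.63e-07) and fell by 0.65 ± 0.09 in TgSREBP-2 (limma adjusted p = 0.00265). The TgSREBP-2 call was short of 1.5-fold without TgSREBP-2 replicate 1, and also with 32 added to the linear signal (-0.56 in both cases). The direct difference of 2.67 ± 0.09, or 6.36-fold, was the largest of any P450 gene between the transgenic pools. On chow, Cyp2c39 was 8.35 and 8.37 in Scap-/- and 8.80 and 8.94 in wild type, a difference of -0.51 ± 0.09 that passed the adjusted p (0.0144, limma) but not 1.5-fold.

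Cyp2c70, which in mice makes muricholic acids from chenodeoxycholic acid, was lower both with excess SREBP-1a and without Scap. TgSREBP-1a livers had a log2 signal of 8.74 and 8.36, TgSREBP-2 livers 10.31 and 10.01, and their wild type 10.71 and 10.44. It was 9.67 and 9.85 in Scap-/- against 10.90 on both arrays of chow wild type. Neither of these pools overlapped its own wild type. Cyp2c70 fell 4.07-fold in TgSREBP-1a (-2.03 ± 0.15, limma adjusted p = 4.88e-06) and 2.20-fold in Scap-/- (-1.13 ± 0.15, limma adjusted p = 0.0015). These 2 comparisons share no array. TgSREBP-2 gave -0.42 ± 0.15 (limma adjusted p = 0.161), and TgSREBP-1a minus TgSREBP-2 was -1.61 ± 0.15. The other Cyp2c genes were not called. Cyp2c29, a drug oxidase, ran from 6.57 to 7.19 and had its largest difference, -0.49 ± 0.10, between the wild type pools. Cyp2c38, an arachidonic acid epoxygenase, ran from 10.30 to 10.96 and had 0.51 ± 0.10 between the transgenic pools, and 0.62 after quantile normalization was applied again, which was called.

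The Cyp2b family, which holds the classic phenobarbital-inducible genes, moved in 1 member. Cyp2b9, a gene expressed mainly in female liver, was at 7.55 and 7.28 in TgSREBP-1a, 5.71 and 5.70 in high-protein wild type, and 5.98 and 5.94 in TgSREBP-2. Scap-/- had 6.22 and 6.18, and chow wild type 5.70 and 5.57. The TgSREBP-1a arrays stood clear of all others, and Scap-/- stood above its own wild type by less. Cyp2b9 rose 3.26-fold in TgSREBP-1a (1.71 ± 0.10, limma adjusted p = 8.89e-07) and differed from TgSREBP-2 by 1.45 ± 0.10. In Scap-/- it was at 0.56 ± 0.10, which passed the adjusted p (0.011, limma) but not 1.5-fold. Cyp2b10, the usual reporter of CAR activity, ran only from 7.21 to 7.68 over all arrays. Cyp2b13, another gene of female liver, ran from 4.98 to 5.19, and Cyp2b19, known from skin, from 5.87 to 6.22.

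Cyp2f2 and Cyp2a12 were lower in TgSREBP-1a than in both other pools on the high-protein diet. Cyp2f2, which activates naphthalene and is periportal in liver, was at 9.52 and 9.58 there, 11.44 and 11.32 in wild type, and 11.27 and 11.21 in TgSREBP-2. It fell 3.55-fold against wild type (-1.83 ± 0.08, limma adjusted p = 1.06e-07) and stood at -1.69 ± 0.08 against TgSREBP-2. In Scap-/- it was 10.78 on both arrays against 11.23 and 11.33, a difference of -0.50 ± 0.08 that was short of 1.5-fold (limma adjusted p = 0.00596). TgSREBP-2 gave -0.14 ± 0.08 (limma adjusted p = 0.412). Cyp2a12, a steroid hydroxylase, was at 9.78 and 9.57 in TgSREBP-1a, 10.43 and 10.23 in wild type, and 10.79 and 10.74 in TgSREBP-2. The pools did not overlap, and wild type lay between the transgenic pools. Cyp2a12 fell by 0.66 ± 0.10 in TgSREBP-1a (limma adjusted p = 0.000945), but by under 1.5-fold without wild type replicate 1 (-0.56) or TgSREBP-1a replicate 2 (-0.55). Between the transgenic pools it differed by -1.09 ± 0.10. On chow it had 10.45 and 10.50 in Scap-/- and 10.61 and 10.69 in wild type.

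Of the Cyp2d genes, which in humans clear many basic drugs, 2 of 3 were lower in TgSREBP-1a than in TgSREBP-2. Cyp2d26 was at 10.67 on both TgSREBP-1a arrays, 11.55 and 11.46 in wild type, and 11.71 and 11.69 in TgSREBP-2. It fell by 0.83 ± 0.08 against wild type (limma adjusted p = 2.9e-05) and stood at -1.03 ± 0.08 against TgSREBP-2. On chow it had 11.29 and 11.36 in Scap-/- and 11.42 and 11.50 in wild type, so TgSREBP-1a was the lowest of the 5 pools. Cyp2d10 had 11.29 and 11.21 in TgSREBP-1a, 11.85 and 11.65 in wild type, and 11.97 and 11.79 in TgSREBP-2. Its difference from TgSREBP-2 was called (-0.63 ± 0.10, limma adjusted p = 0.00203), but was under 1.5-fold without TgSREBP-2 replicate 1 (-0.54) or with quantile normalization again (-0.49). The chow pools were the brightest for this gene, at 12.14 and 12.28 in Scap-/- and 12.13 and 12.19 in wild type. Cyp2d9, a testosterone hydroxylase of male liver, was not called and ran from 8.37 on TgSREBP-1a replicate 1 to 9.13 on Scap-/- replicate 1. Cyp2e1, which oxidises ethanol, stayed between 12.80 and 13.10 on all arrays and was not called. Its TgSREBP-1a difference was -0.20 ± 0.08.

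Dim Cyp2 genes gave 1 call. Cyp2j5, an arachidonic acid epoxygenase, was at 4.19 and 3.99 in TgSREBP-1a against 4.92 and 4.66 in wild type. It fell by 0.70 ± 0.13 (limma adjusted p = 0.0043). That was under 1.5-fold without wild type replicate 1 (-0.57), and at -0.28 with 32 added to the linear signal. Scap-/- had 4.28 and 4.39, chow wild type 4.64 on both arrays, and TgSREBP-2 4.74 and 4.38. Cyp2j6 ran from 3.65 to 4.15 and Cyp2s1 from 5.83 to 6.21, and neither was called.

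The Cyp3a genes, which oxidise most drugs and many steroids, were spread widely over the pools. Cyp3a11, the main Cyp3a enzyme of male mouse liver and a PXR target, was at 11.98 and 11.72 in TgSREBP-1a. TgSREBP-2 had 10.88 and 10.44, and their wild type 9.94 and 9.76. Chow wild type had 11.48 and 11.41 and Scap-/- 11.75 and 11.80. High-protein wild type was thus the lowest pool, and the TgSREBP-1a arrays reached the range of the chow pools. Cyp3a11 rose 4.0-fold in TgSREBP-1a (2.0 ± 0.14, limma adjusted p = 4.47e-06) and 1.76-fold in TgSREBP-2 (0.81 ± 0.14, limma adjusted p = 0.00812). The TgSREBP-2 call was lost in limma without wild type replicate 2 (adjusted p = 0.0605) or TgSREBP-2 replicate 1 (adjusted p = 0.0597). The transgenic pools differed by 1.19 ± 0.14. High-protein wild type was 3.03-fold below chow wild type (-1.60 ± 0.14, limma adjusted p = 5.87e-05). The high-protein wild type arrays enter each of these differences except that between the transgenic pools.

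Cyp3a25, another liver Cyp3a enzyme, had 9.72 and 9.30 in TgSREBP-2, 9.0 and 8.50 in TgSREBP-1a, and 8.73 and 8.22 in high-protein wild type. The TgSREBP-1a and wild type arrays overlapped, while both TgSREBP-2 arrays were higher. Cyp3a25 rose in TgSREBP-2 by 1.03 ± 0.21 (limma adjusted p = 0.0169), and this call was lost in limma without wild type replicate 2 (adjusted p = 0.109) or TgSREBP-2 replicate 1 (adjusted p = 0.17). The difference of -0.76 ± 0.21 between TgSREBP-1a and TgSREBP-2 (limma adjusted p = 0.0415) was not called in limma without TgSREBP-1a replicate 2 (adjusted p = 0.226) or TgSREBP-2 replicate 1 (adjusted p = 0.266). It was also lost with only these 2 groups in the fit (adjusted p = 0.107) or with 32 added to the linear signal (adjusted p = 0.0634). Scap-/- had 8.98 and 9.27. Chow wild type had 9.46 and 9.49, and the high-protein wild type fell by 1.0 ± 0.21 against it (limma adjusted p = 0.00832). This last call was lost in limma without chow replicate 1 (adjusted p = 0.0511), chow replicate 2 (adjusted p = 0.0691) or high-protein replicate 2 (adjusted p = 0.0525).

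Cyp3a13, which is expressed in liver and gut, went the other way from Cyp3a11. It had 8.34 and 7.82 in TgSREBP-1a, 9.41 and 9.06 in wild type, and 9.69 and 9.22 in TgSREBP-2. TgSREBP-1a did not overlap either pool, and those pools overlapped each other. Cyp3a13 fell by 1.15 ± 0.19 in TgSREBP-1a (limma adjusted p = 0.00213) and stood at -1.37 ± 0.19 against TgSREBP-2. On chow it had 8.81 and 8.93 in Scap-/- and 9.03 and 9.19 in wild type. Cyp3a16, a gene of fetal and female liver whose probe set carries the suffix _r_at, was dim, at 4.51 and 4.50 in TgSREBP-1a against 3.81 and 3.54 in wild type. It rose by 0.82 ± 0.11 (limma adjusted p = 0.000343). TgSREBP-2 had 4.03 and 4.17, Scap-/- 4.39 and 4.52, and chow wild type 4.24 and 4.38, all of them above high-protein wild type. High-protein wild type was 0.63 ± 0.11 below chow wild type, which was under 1.5-fold without chow replicate 2 (-0.56) or high-protein replicate 2 (-0.50). With 32 added to the linear signal these values were 0.29 and -0.21, and neither was called.

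Among the Cyp4 fatty acid hydroxylases, Cyp4v3, the mouse counterpart of a human gene for retinal lipid metabolism, changed most. Its signal was 9.51 and 8.98 in TgSREBP-1a, 11.04 and 10.95 in wild type, and 10.56 and 10.57 in TgSREBP-2. The pools did not overlap, and TgSREBP-2 lay between the other 2. Scap-/- had 10.89 and 10.94 and chow wild type 10.64 and 10.74, both far from TgSREBP-1a. Cyp4v3 fell 3.35-fold in TgSREBP-1a (-1.74 ± 0.14, limma adjusted p = 1.16e-05). In TgSREBP-2 the difference was -0.43 ± 0.14 (limma adjusted p = 0.136), and the transgenic pools differed by -1.32 ± 0.14. Cyp4a12b, which hydroxylates fatty acids such as lauric and arachidonic acid, was at 11.15 and 11.27 in TgSREBP-1a, 10.78 and 10.68 in wild type, and 10.27 and 10.29 in TgSREBP-2. The pools did not overlap. Neither transgenic pool reached 1.5-fold against wild type (0.48 ± 0.08 and -0.45 ± 0.08), while their direct difference did (0.93 ± 0.08, limma adjusted p = 2.28e-05). Scap-/- had 10.87 on both arrays and chow wild type 11.18 and 11.24, a difference of -0.34 ± 0.08 (limma adjusted p = 0.0525).

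Cyp4b1, known for activating lung toxins, was at 8.37 and 8.0 in TgSREBP-1a against 7.62 and 7.49 in TgSREBP-2, with wild type at 7.93 and 7.72. The transgenic pools did not overlap each other and differed by 0.63 ± 0.12 (limma adjusted p = 0.00613). That difference was under 1.5-fold without TgSREBP-1a replicate 1 (0.45) or TgSREBP-2 replicate 2 (0.57), or with 32 added (0.56). With only these groups in the limma fit the adjusted p = 0.0606. On chow, Cyp4b1 had 7.95 and 7.94 in Scap-/- and 8.05 and 8.08 in wild type. Cyp4f13, a hydroxylase of long-chain fatty acids, ran from 7.79 to 8.42 and was not called, with -0.30 ± 0.09 in TgSREBP-1a and -0.44 ± 0.09 between the transgenic pools.

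**Figure D3:**
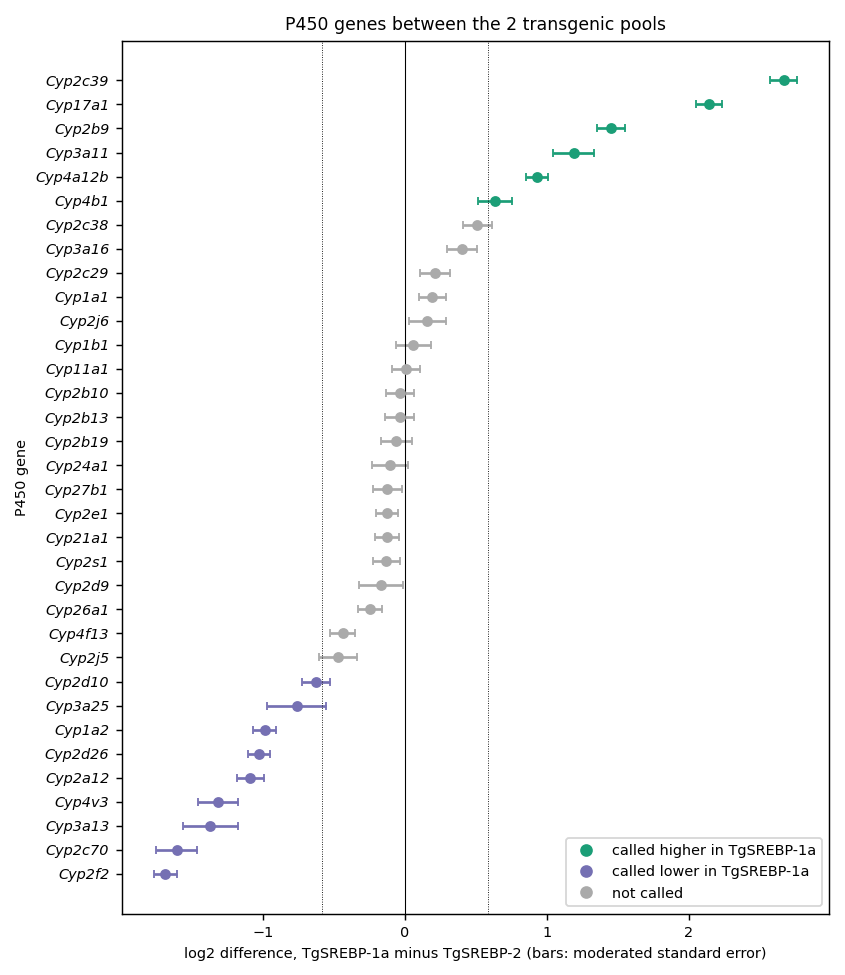
Log2 difference between TgSREBP-1a and TgSREBP-2 (x axis) for the 34 P450 genes (y axis), with moderated standard errors as bars. Dotted lines mark 1.5-fold, green points are called higher and purple points called lower in TgSREBP-1a. The calls run from 2.67 for Cyp2c39 to -1.69 for Cyp2f2.

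Of the P450 genes of steroid hormone synthesis, Cyp17a1 alone was called. This enzyme, which makes androgen and cortisol precursors, is also transcribed in mouse liver. It stood at 10.07 and 9.96 in TgSREBP-1a against 8.20 and 8.08 in wild type and 7.93 and 7.81 in TgSREBP-2. Chow wild type had 8.21 and 8.32 and Scap-/- 7.90 and 7.79. All other arrays lay at least 1 log2 unit below TgSREBP-1a. Cyp17a1 rose 3.67-fold in TgSREBP-1a (1.88 ± 0.09, limma adjusted p = 1.86e-07), and 4.41-fold against TgSREBP-2 (2.14 ± 0.09). Its second, dimmer probe set gave 0.37 ± 0.10 and 0.63 ± 0.10. Scap-/- was at -0.42 ± 0.09, under 1.5-fold. Cyp11a1, which cleaves the cholesterol side chain, ran from 5.98 to 6.27, and Cyp21a1, the enzyme of mineralocorticoid and glucocorticoid synthesis, from 8.55 to 8.90. Of 6 adrenal and gonadal markers that are no P450, limma called 0 in any comparison. At most 1 per comparison had an unadjusted p under 0.05 in limma, and 4 of the 6 were dim, with a mean under 6. Star, which brings cholesterol to the inner mitochondrial membrane, stayed between 5.58 and 5.88.

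The P450 genes of vitamin D and retinoid breakdown gave 1 call, between the wild type pools. Cyp26a1, which degrades retinoic acid, was at 4.79 and 4.88 in high-protein wild type against 6.11 and 6.0 in chow wild type. It fell 2.33-fold (-1.22 ± 0.09, limma adjusted p = 1.12e-05). TgSREBP-1a had 4.90 and 4.78, TgSREBP-2 5.12 and 5.05, and Scap-/- 5.82 and 5.72. All arrays on the high-protein diet lay between 4.78 and 5.12, and all on chow between 5.72 and 6.11. The wild type pools differ in diet, age, injections and the set they were made with, which cannot be told apart. Cyp24a1, which breaks down vitamin D, ran from 3.75 to 4.31, and Cyp27b1, which activates it, from 6.15 to 6.52. Together with these 2, 16 genes were called nowhere, and their 10 arrays spanned 0.21 to 0.76 log2 units.

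Genes that serve or control P450s were read beside the members. As background for these and the later lists, 4.78% of all genes rose and 2.59% fell in TgSREBP-1a. The shares were 2.18% and 0.388% in TgSREBP-2, and 0.739% and 0.921% in Scap-/-. Between the wild type pools 1.28% were higher and 4.34% lower on the high-protein diet. Of 19 listed redox partners and heme enzymes 15 were measured, and the P450 reductase gene Por was not among them. In TgSREBP-1a, 2 of the 15 rose and 0 fell, and the cytochrome b5 gene Cyb5a was not called (-0.26 ± 0.12). Cyb5b, the mitochondrial outer membrane cytochrome b5, rose by 1.44 ± 0.10 and the cytochrome b5 reductase gene Cyb5r3 by 0.89 ± 0.12. In TgSREBP-2, Cyb5b (0.88 ± 0.10) and the heme-binding protein gene Pgrmc1 (0.59 ± 0.11) rose. In Scap-/-, Cyb5b fell (-0.93 ± 0.10) and Alas1, which starts heme synthesis, rose (0.84 ± 0.09). Cyb5b thus went up in both transgenic pools and down in Scap-/-. Between the wild type pools Hmox1 was higher on the high-protein diet and Cyb5b, Alad and Urod were lower.

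Of 27 measured regulators, 6 fell and 1 rose in TgSREBP-1a. These were Ppara (-1.24 ± 0.13), the growth hormone receptor gene Ghr (-1.11 ± 0.12), the repressor gene Bcl6 (-1.06 ± 0.08), Nr1i3 (-0.97 ± 0.08), the hepatocyte factor gene Cebpa (-0.77 ± 0.08) and Igf1 (-0.59 ± 0.09). Nfe2l2, the oxidative stress factor NRF2, rose by 1.44 ± 0.11. The PXR gene Nr1i2 ran from 5.80 to 6.20 over all arrays and was not called. In TgSREBP-2 Bcl6 (-0.75 ± 0.08) and Foxa3 (-0.66 ± 0.15) fell. Nr1i3 was 8.19 and 8.37 in TgSREBP-1a against 9.75 and 9.77 in TgSREBP-2, with their wild type at 9.21 and 9.29, so the transgenic pools lay on opposite sides of wild type. In Scap-/- only Bcl6 fell (-0.77 ± 0.08). Between the wild type pools Ppara was higher on the high-protein diet (0.97 ± 0.13), and Ahr (-1.28 ± 0.22), Nfe2l2 (-0.93 ± 0.11), Bcl6 and Nr1h3 were lower.

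**Figure D4:**
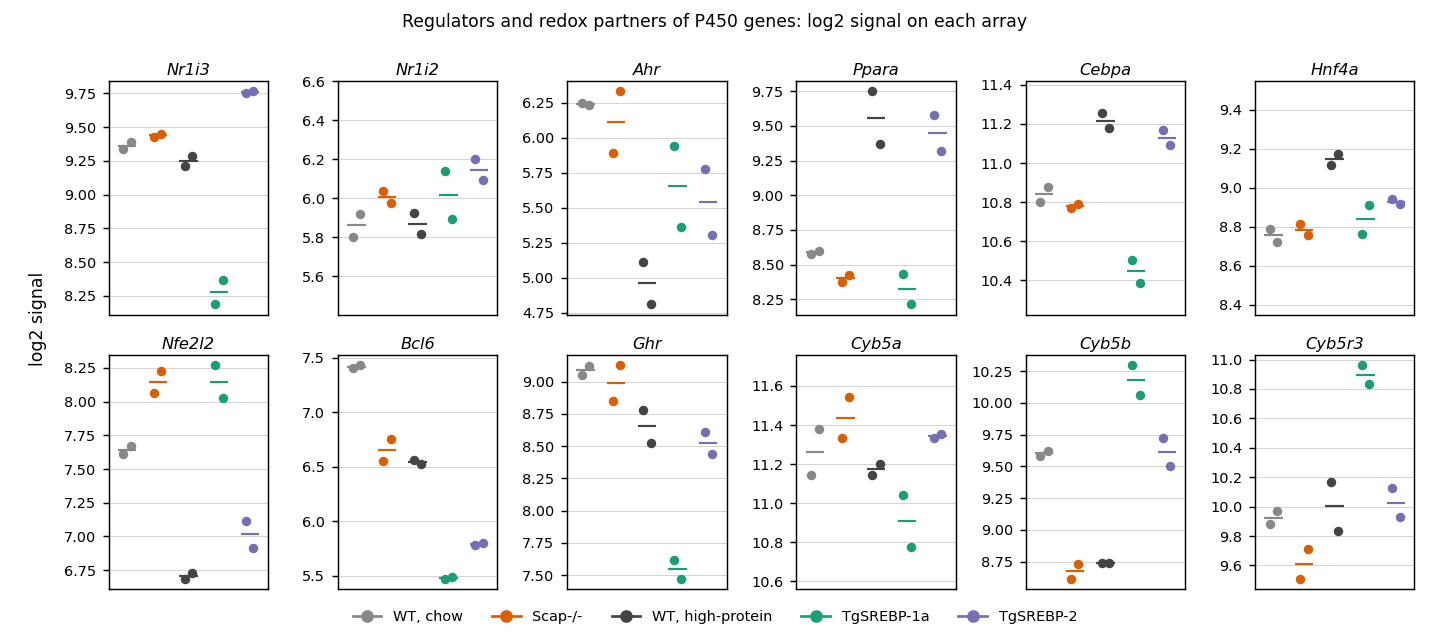
Log2 signal (y axis, a scale of its own in each panel) of 9 regulators and 3 redox partners of P450 genes on each array, with bars for the means of the 5 pools. Nr1i3, Cebpa and Ghr are lowest on the TgSREBP-1a arrays, and Cyb5b is high in TgSREBP-1a and low in Scap-/- and high-protein wild type.

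Other enzymes of drug and aldehyde metabolism also moved in both directions. Of 31 measured, 8 rose and 4 fell in TgSREBP-1a. Gstm3 rose by 2.14 ± 0.10 and Aldh1a7 by 2.12 ± 0.12, while the carboxylesterase genes Ces3a (-3.52 ± 0.12) and Ces1c (-2.50 ± 0.11) fell. In TgSREBP-2, 3 rose and 2 fell, and in Scap-/- 1 rose and 2 fell. Between the wild type pools 14 of 31 were lower on the high-protein diet and 1 was higher. Fmo1 (-1.52 ± 0.20), Ces1g (-1.43 ± 0.10), Ephx1 (-1.23 ± 0.07) and Aox1 (-1.16 ± 0.11) led.

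Sex-biased and zonal genes that are no P450 were counted beside some of the members that share these patterns. Of 6 male-biased genes, limma called 6 lower in TgSREBP-1a, 1 in TgSREBP-2, 0 in Scap-/- and 1 between the wild type pools. At an unadjusted p under 0.05 in limma, 6, 5, 1 and 2 of them were lower, and 0 were higher. Hsd3b5 (-2.69 ± 0.15) and Mup3 (-2.57 ± 0.08) led in TgSREBP-1a. Without a transgene, Hsd3b5 was also lower in high-protein than in chow wild type (-2.07 ± 0.15). Of 6 female-biased genes, limma called 0 in each comparison, up to 2 per comparison had an unadjusted p under 0.05, and 5 of them had a mean under 6. Among the P450 genes described above as genes of female liver, Cyp2b9 and Cyp3a16 rose in TgSREBP-1a and Cyp2b13 was not called. Cyp2d9, described as a gene of male liver, was not called either. The other members were not sorted by sex bias. Among them, Cyp17a1 rose (1.88 ± 0.09). Cyp4a12b was higher but short of 1.5-fold (0.48 ± 0.08, limma adjusted p = 0.00191), and was called higher than in TgSREBP-2 (0.93 ± 0.08). The few members named here give no sex pattern for the P450 genes as a whole. Of 11 periportal genes, 4 fell in TgSREBP-1a (Pck1 -1.66, Otc -1.52, Hal -1.30 and G6pc -1.28) beside the periportal Cyp2f2. Of 10 pericentral genes, Oat and Aldh1a1 rose (0.65 ± 0.12 and 0.72 ± 0.09), while the pericentral Cyp1a2 fell and Cyp2e1 was not called. The other members were not sorted by zone, among them Cyp3a11, which rose (2.0 ± 0.14), and Cyp2c29, which was not called (0.30 ± 0.10).

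Markers of other cells moved with some of these comparisons. Hepatocyte markers were bright, between 8.75 and 13.85, and of 7 of them Tat rose and Ttr and Tdo2 fell in TgSREBP-1a. Their summed log2 signal was 15.22 to 15.31 there and 15.30 to 15.33 in high-protein wild type. Sums of this kind mostly follow the brightest probe sets, here those of Alb and Apoa1. At an unadjusted p under 0.05 in limma, 2 of the 7 were higher and 5 lower in TgSREBP-1a. All 6 measured exocrine pancreas markers were lower in TgSREBP-1a, with a summed log2 signal of 10.10 on both arrays against 13.82 to 13.83 in wild type. They were also all lower in Scap-/-, at 10.64 to 10.69 against 12.80 to 12.82, and stood at 14.27 to 14.30 in TgSREBP-2. Macrophage markers rose in 5 of 10 in TgSREBP-1a (12.12 to 12.19 summed, against 11.43 in wild type) and in 3 of 10 in TgSREBP-2 (11.80 to 11.91). At an unadjusted p under 0.05 in limma, all 10 were higher in TgSREBP-1a and 7 in TgSREBP-2. The lowest pancreas value on any array was 5.64, and the lowest of any probe set was 2.68. Without detection calls these values do not show whether a marker was present in a pool. Endothelial markers rose in 2 of 7 in TgSREBP-1a, Cdh5 by 0.72 ± 0.12 and Lyve1 by 1.09 ± 0.17 (9.37 to 9.48 summed, against 9.20 to 9.27 in wild type). Between the wild type pools, 5 of 6 pancreas markers were higher on the high-protein diet, and 4 of 10 macrophage markers were lower (11.43 against 11.98 to 12.07 summed), where all 10 had an unadjusted p under 0.05 in limma. The 5 P450 genes called there were lower too. The part of pancreas, macrophage and endothelial RNA in the P450 differences was not tested.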

How the data were processed

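The table the authors deposited holds log2 signals of 12488 probe sets. RMA is the tool named per the submitters' processing notes, and the sources used here give no version of it. The design text of the series instead names Microarray Suite 5.0. Medians of 6.37 to 6.4 per array are those of values normalized between arrays. No detection calls entered.

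The platform annotation gave 1 gene symbol for 10833 probe sets, several for 396 and none for 1193, and 66 were controls. Symbols were updated by gene ID through RefSeq (GRCm38.p6), where 10817 matched. Only probe sets with 1 symbol were used, and 7 P450 probe sets with several symbols were left out. The 34 members had 40 probe sets, 6 members having 2. The probe sets used carry the plain suffix _at for 29 members and a suffix for probes shared or irregular by design for 5 (Cyp2c38, Cyp4b1, Cyp21a1, Cyp2d10 and Cyp3a16). P450 genes of 1 subfamily are alike in sequence, so signal of close paralogs may be mixed.

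The model had a coefficient for each of the 5 groups and was fitted over all 10 arrays and 8251 genes (limma 3.58.1, functions lmFit and eBayes, R 4.3.3). It had no block and left 5 residual degrees of freedom, and p-values were adjusted by Benjamini-Hochberg for each of 5 comparisons. Each gene has a single variance for the 5 groups, so the wider duplicate spread of the high-protein pools is averaged with the narrower spread of the chow pools. The script was tested on simulated data. Precision is limited by the number of arrays.

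The members and lists were chosen with earlier results of these data known. Every member is accounted for: those called in at least 1 comparison are given by array, the others by range, and of the other lists up to 4 called genes per comparison are named. Genes named beyond that, those in the plot of regulators and those of the marker lists were chosen after their values were seen. Alternatives were another offset, normalization, dim-gene filter, probe set rule, variance model, fold threshold, sample set and replicate block, and leaving out each array.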

Additional observations from a re-analysis of the deposited data

Results flagged for a closer look

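In 3 P450 genes the transgenic pools moved to opposite sides of their shared wild type pool, with an adjusted p under 0.05 in limma on each side, and the direct difference between them was called. For Cyp2c39 the direct difference, TgSREBP-1a minus TgSREBP-2, was 2.67 ± 0.09, from 2.02 and -0.65 against wild type. For Cyp2a12 it was -1.09 ± 0.10, from -0.66 and 0.43. For Cyp4a12b it was 0.93 ± 0.08, from 0.48 and -0.45. Both differences from wild type use the same 2 wild type arrays, so an error in those arrays moves both the same way. The direct differences do not use them.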

How the results depend on the processing

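The alternatives kept the sign of all 38 called P450 differences, and 27 of them remained called under each alternative that measured them, other than the 2-fold threshold. Leaving out 1 array gave 11 to 14 called members for TgSREBP-1a (13 with all arrays), 1 to 4 for TgSREBP-2 (4), 13 to 15 between the transgenic pools (15), 1 in each case for Scap-/-, and 3 to 5 between the wild type pools (5). With the 2-fold threshold TgSREBP-2 had 1 call and the wild type pools 2. At an adjusted p under 0.05 with no fold threshold, TgSREBP-2 had 7 calls (5.05% of all genes), Scap-/- 5 (2.84%) and the wild type pools 10 (22.7%). Only genes with a mean of at least 6 gave 3 between the wild type pools, since Cyp26a1 and Cyp3a16 are dimmer. Adding 32 to the linear signal ended 6 of the 38 calls. Over all genes, leaving out TgSREBP-1a replicate 2 or TgSREBP-2 replicate 1 turned which direction held more calls between the transgenic pools (254 higher and 206 lower, 217 and 194, against 185 and 243). All groups carry the same replicate numbers, whose meaning the labels leave unsaid. Deviations of same-numbered arrays correlated at 0.46 to 0.61 within the transgenic set, at 0.3 in the Scap set and at -0.12 to -0.48 between the sets. With the replicate number as a block, over all arrays or within each set, the calls were again 13, 4, 15, 1 and 5, the same genes in each comparison.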

Other observations

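P450 genes that lie in the same stretch of a mouse chromosome (RefSeq, GRCm38.p6) moved together in some comparisons and apart in others. Other genes can lie between them, so they need not be adjacent. Between the wild type pools all 3 measured genes of the Cyp3a cluster, Cyp3a11, Cyp3a16 and Cyp3a25, were lower on the high-protein diet. Cyp4a12b and Cyp4b1, which lie in the same stretch, were both higher in TgSREBP-1a than in TgSREBP-2. The Cyp4b1 call was lost under several alternatives, as given above. In the cluster that holds 7 of the measured genes, Cyp2b9 rose in TgSREBP-1a, Cyp2a12 and Cyp2f2 fell, and Cyp2b10, Cyp2b13, Cyp2b19 and Cyp2s1 were not called. Among the 4 measured Cyp2c genes Cyp2c39 rose there, Cyp2c70 fell, and Cyp2c29 and Cyp2c38 were not called. Between the transgenic pools Cyp3a11 was higher and Cyp3a25 lower in TgSREBP-1a than in TgSREBP-2. This Cyp3a25 call was lost under several alternatives, as given above. Cyp1a2 fell in both transgenic pools while its neighbour Cyp1a1 was not called.

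A second probe set was present for 6 genes. The dimmer one of Cyp2d10 gave -0.78 ± 0.15 between the transgenic pools and was called like the brighter one. The dimmer one of Cyp17a1, with a mean of 4.24 against 8.43, was called between the transgenic pools (0.63 ± 0.10) and not against wild type (0.37 ± 0.10). For Cyp1a1, Cyp1b1, Cyp24a1 and Cyp4f13 neither probe set was called in any comparison.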
